A study of Ovis aries and Bos taurus with 15 samples.

Results

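The genes described here encode the coats and sorting complexes of endosomes: the clathrin chains, the adaptor complexes AP-1 to AP-4, the retromer, the sorting nexins and the vacuolar protein sorting (VPS) proteins. Members were chosen by gene symbol: a probe set belonged if its only symbol was CLTA, CLTB or CLTC, named a subunit of those adaptors, or began with VPS or SNX and a digit. The family itself was selected on earlier results of these data, in which a probe set of AP2B1 was among the 3 of largest rise with GW9662, so the GW9662 values of AP2B1 are given as a description, with no test. The rule took 90 of the 13292 probe sets that name 1 gene, and these stood for 64 of 9155 genes. A probe set is a group of short probes read together. The 64 genes fell into 14 classes by role. Of 91 protein-coding symbols that meet the rule in the sheep RefSeq gene table, 63 were among the members, and VPS25 was a member without that symbol in the table.

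The study asked how inhibition of PPARγ, a nuclear receptor, alters gene expression in pulmonary endothelial cells. The 3 groups were each profiled on 5 arrays of bovine probes: ovine cells labelled PAEC given 5 µM GW9662 for 24 h, bovine cells labelled BAEC and titled controls, and ovine PAEC given the solvent DMSO as vehicle. GW9662 binds PPARγ irreversibly and blocks it. All cells grew in DMEM with 10% fetal serum, and the labels do not say whether the bovine cells received DMSO. No label says that replicates came from separate cultures or animals, so the p-values below measure the spread between arrays, which may be technical.

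Clathrin forms the outer cage of vesicles, and the adaptors AP-2 at the plasma membrane and AP-1 at the Golgi and endosomes join it to cargo. The related AP-3 sorts cargo on the way to lysosomes, and AP-4 acts at the Golgi without clathrin. The retromer, a trimer of VPS35, VPS29 and a VPS26 protein, works with sorting nexins to return receptors from endosomes to the Golgi or the cell surface, while ESCRT proteins sort ubiquitinated receptors into vesicles for degradation. HOPS, CORVET and GARP tether endosomal membranes before they fuse. Endothelial cells use this machinery to take up and recycle receptors for lipoproteins, growth factors and adhesion.

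The deposited values are log2 expression values made with RMA, a method that scales arrays to each other. Array medians ran from 3.18 to 3.27 and single values from 0.90 to 14.07. Values under 3 lie near the floor of the method, where weak and absent expression look alike, and 15 of the 90 members had a mean there (16.7%, against 45.9% of all probe sets). PECAM1 and CDH5, which define endothelium, averaged 11.48 and 11.35 with GW9662, 11.68 and 11.64 in bovine controls, and 11.63 and 11.47 with vehicle, while VWF was under 3 in all 3 groups. Of the 14 endothelial markers measured, 3 were under 3 with GW9662, 1 in bovine controls and 4 with vehicle. Markers of epithelium and mesothelium (7 of 7 measured), lymphatic endothelium (3 of 3) and erythroid cells or platelets (5 of 5) were under 3 in every group. Of 6 leukocyte markers, 5 were under 3 with GW9662, 6 in bovine controls and 5 with vehicle. The 3′ minus 5′ signal of control transcripts, an indirect measure of RNA integrity read on bovine probes, averaged 0.956 ± 0.074 with GW9662, 0.881 ± 0.043 in bovine controls and 1.18 ± 0.085 with vehicle (SD, n = 5), with no overlap of either group with vehicle (exact permutation p = 0.00794, two-sided, the smallest that 5 against 5 arrays allow). It is a mean over several transcripts, of which actin, EF1A and GST had more 5′ than 3′ signal on every array. Vehicle replicate 1 stood apart from its group, at a root mean square distance of 0.284 from the other 4, against 0.13 to 0.18 for every other array.

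Few of these genes differed past the threshold between GW9662 and vehicle arrays, which also differ in the 3′ minus 5′ signal given above. Leaving aside the 3 probe sets of AP2B1, 2 of 87 (2.30%) were higher with GW9662 past an adjusted p of 0.05 in limma. They were in VPS26A and VPS35, and 0 of the 87 were lower. Of all 24016 probe sets, 0.146% were higher and 0.0375% lower. Among members other than AP2B1 with a mean of at least 3 the count was 2 of 73 (2.74%). Of 13004 such probe sets on the array, 0.261% were higher and 0.0692% lower. GW9662 and vehicle arrays did not overlap in 7 of the 87 (8.05%), against 14.6% of all probe sets, and in 5 of the 73 brighter ones (6.85%), against 5.41%. The median difference, GW9662 minus vehicle, was 0.06 over the 73 and 0.03 over all brighter probe sets, and 44 of the 73 were positive (60.3%, against 56.6%). An unadjusted p under 0.05 was reached by 16 of 87 (18.4%, against 21.4% of all).

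**Figure D1:**
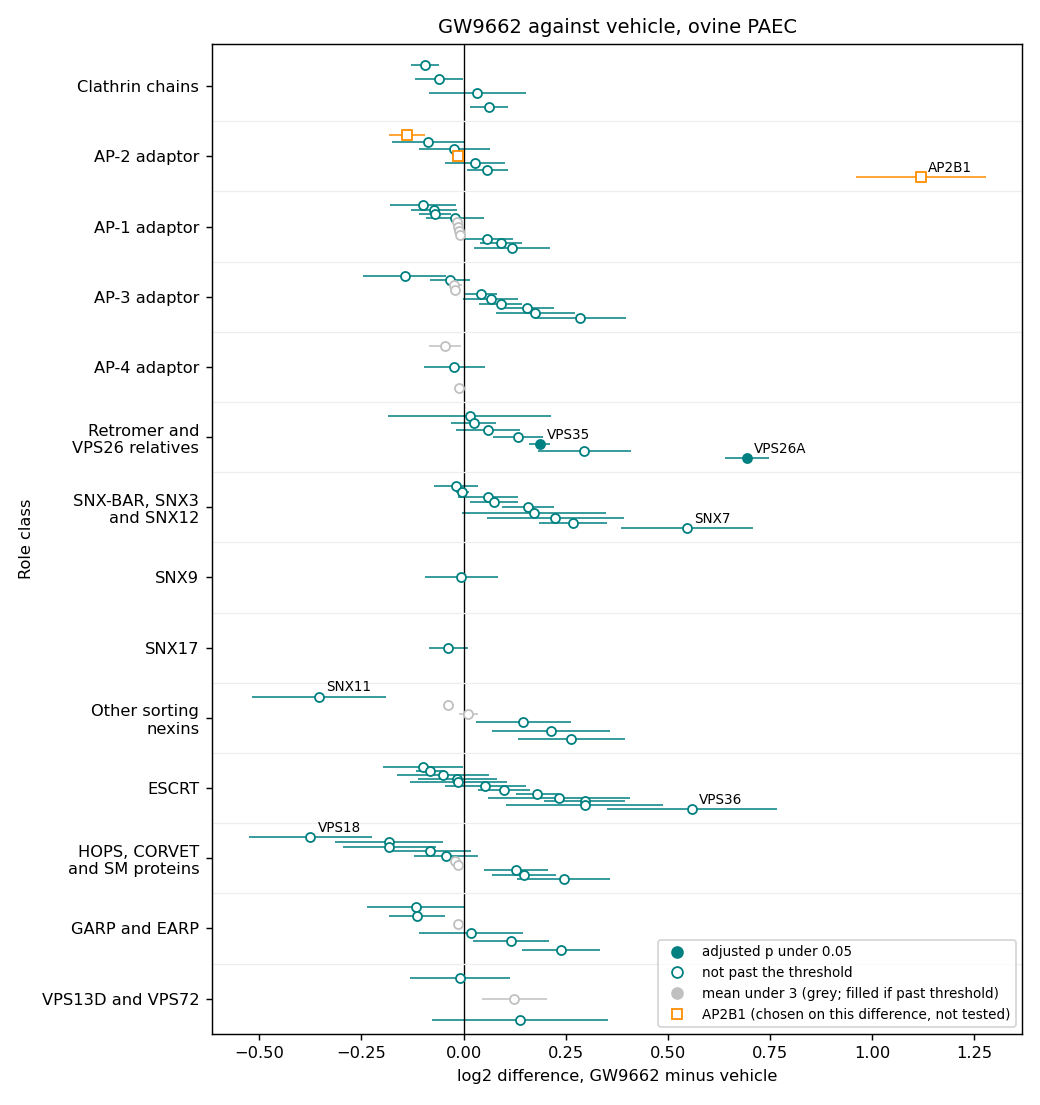
Log2 difference, GW9662 minus vehicle, of the 90 probe sets in 14 role classes (points, with bars of 1 SE, 5 arrays per group). Filled points passed an adjusted p of 0.05 and grey ones had a mean under 3; squares are AP2B1, up to 1.12, which was not tested. VPS26A at 0.69 and VPS35 at 0.19 passed, while VPS36 at 0.56 and SNX7 at 0.55 have wider bars and did not.

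The retromer held both tested calls. VPS26A, the arrestin-like subunit that links the trimer to sorting nexins, had 3 probe sets. The dimmest of them, with arrays from replicate 1 to 5 as in all value lists below, had 6.70, 6.79, 6.80, 6.79 and 6.89 with GW9662, 7.04, 6.79, 7.02, 6.87 and 7.00 in bovine controls and 5.98, 6.03, 6.23, 6.20 and 6.05 with vehicle. Every GW9662 array and every bovine array was above every vehicle array. The mean was 6.79 ± 0.066 with GW9662 and 6.10 ± 0.11 with vehicle (SD, n = 5), a difference of 0.69 (SE 0.055, adjusted p = 0.00683), or 1.62-fold. It passed with each of the 10 arrays left out in turn (0.66 to 0.73, adjusted p up to 0.0365), and was 0.66 (adjusted p = 0.00931) without vehicle replicate 1. In a fit with the 3′ minus 5′ signal as covariate it was 0.57 (adjusted p = 0.425), a fit in which no probe set of the array passed.

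The other probe sets of VPS26A did not pass. The middle one had 8.14, 8.07, 8.29, 8.34 and 8.24 with GW9662, 8.45, 8.30, 8.33, 8.43 and 8.29 in bovine controls and 7.55, 7.80, 8.01, 8.17 and 8.06 with vehicle, a difference with GW9662 of 0.30 (SE 0.11, adjusted p = 0.218). The brightest had 11.24, 11.23, 11.20, 11.27 and 11.07 with GW9662, 11.44, 11.21, 11.44, 11.32 and 11.37 in bovine controls and 10.91, 10.97, 11.17, 11.15 and 11.14 with vehicle, a difference of 0.13 (SE 0.061, adjusted p = 0.24). Vehicle arrays overlapped the GW9662 arrays in both, with vehicle replicates 1 and 2 lowest, so the 3 probe sets had the same sign and sizes of 0.69, 0.30 and 0.13.

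VPS35, the scaffold of the trimer, had 10.91, 10.90, 10.97, 10.98 and 10.86 with GW9662, 11.04, 10.92, 11.04, 11.08 and 11.07 in bovine controls and 10.74, 10.69, 10.72, 10.79 and 10.75 with vehicle. GW9662 arrays were all above the vehicle arrays and overlapped the bovine ones. The mean was 10.92 ± 0.048 with GW9662 and 10.74 ± 0.038 with vehicle (SD, n = 5), a difference of 0.19 (SE 0.027, adjusted p = 0.0455). This call was near the threshold: it was kept in 1 of 10 fits that left out an array, the one without vehicle replicate 4, and was 0.19 (adjusted p = 0.0824) without vehicle replicate 1 and 0.18 (adjusted p = 0.129) after a second quantile normalisation.

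VPS29, the metallophosphatase-like subunit, had 10.90, 10.90, 10.72, 10.90 and 10.87 with GW9662, 11.04, 11.09, 11.09, 11.06 and 11.18 in bovine controls and 10.70, 10.77, 10.83, 10.95 and 10.92 with vehicle. GW9662 arrays lay within the range of the vehicle arrays, and the difference was 0.03 (SE 0.055, adjusted p = 0.761). VPS26B, the paralog of VPS26A, averaged 4.41 with GW9662 and 4.35 with vehicle, and VPS26C, the VPS26 relative in the retriever complex, 6.37 and 6.36. Neither passed (adjusted p = 0.606 and 0.963). All 7 probe sets of these 5 genes were positive with GW9662 (median 0.13), but this held for 4 of 7 without vehicle replicate 1, 5 of 7 after a second quantile normalisation and 3 of 7 with the 3′ minus 5′ covariate.

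**Figure D2:**
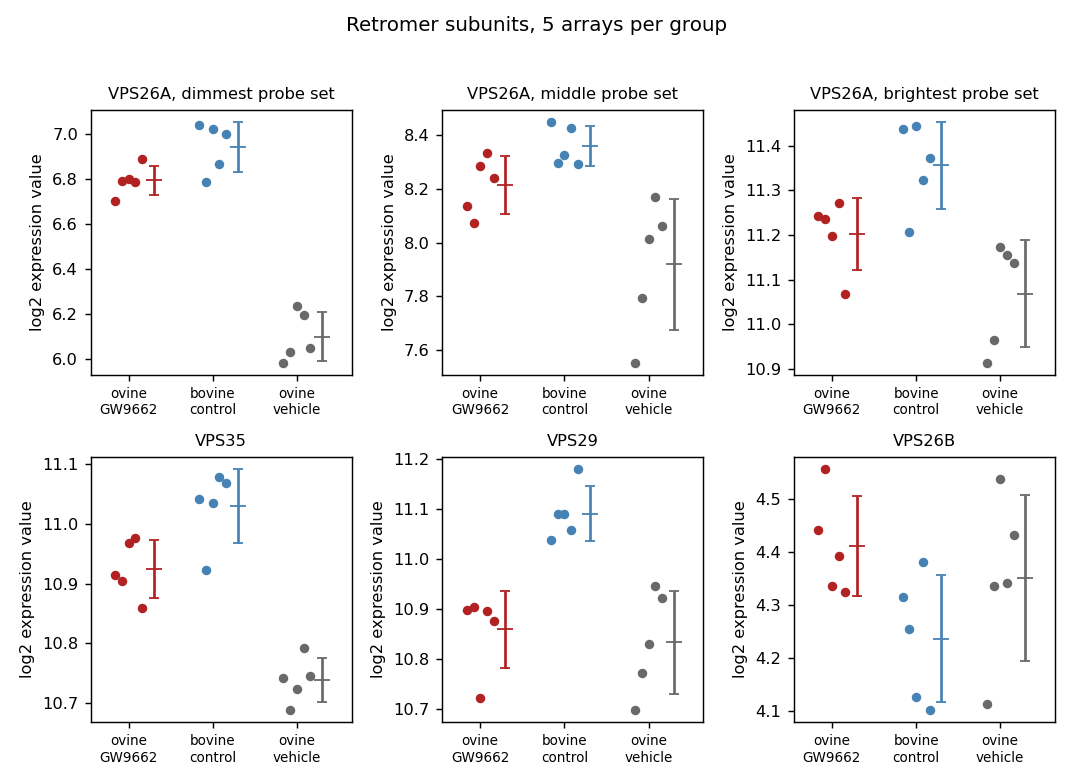
Log2 expression values of VPS26A (3 probe sets), VPS35, VPS29 and VPS26B on each array (points), with the group mean and SD beside them (5 arrays per group, GW9662 left, bovine control in the middle, vehicle right; each panel has its own axis). In the dimmest VPS26A probe set and in VPS35 every GW9662 array lies above every vehicle array, while VPS26B overlaps in all groups.

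In the AP-2 adaptor, 1 dim probe set of the beta subunit AP2B1 was high with GW9662, and the other subunits showed no such difference. That probe set had 3.89, 4.05, 4.09, 3.92 and 3.89 with GW9662, 4.00, 4.56, 4.40, 4.22 and 4.38 in bovine controls and 2.61, 2.91, 3.45, 2.59 and 2.68 with vehicle. The vehicle values lie around the floor, with replicate 3 highest, and the means were 3.97 with GW9662 and 2.85 with vehicle, a difference of 1.12. With an array left out it ran from 1.05 to 1.27. The brightest AP2B1 probe set had 9.85, 10.00, 9.89, 9.78 and 9.99 with GW9662, 10.07, 10.37, 10.15, 10.14 and 10.32 in bovine controls and 10.10, 10.03, 10.07, 9.97 and 10.03 with vehicle. Its difference with GW9662 was -0.14, of opposite sign, with overlapping arrays. The remaining one was under 3 in all groups.

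AP2A1 and AP2A2 are alternative forms of the alpha subunit, which takes part in binding the membrane. AP2A1 had 3.66, 3.71, 3.62, 3.60 and 3.65 with GW9662, 4.16, 4.22, 4.31, 3.67 and 3.66 in bovine controls and 3.64, 3.63, 3.63, 3.65 and 3.40 with vehicle. Vehicle replicate 5 was the lowest array, and the groups given GW9662 and vehicle overlapped (difference 0.06 (SE 0.049, adjusted p = 0.427)). AP2A2 had 8.16, 7.96, 7.93, 7.90 and 8.16 with GW9662, 8.20, 8.48, 8.21, 8.41 and 8.21 in bovine controls and 7.98, 8.28, 8.21, 7.89 and 8.19 with vehicle, a difference with GW9662 of -0.09 (SE 0.09, adjusted p = 0.513) between overlapping groups. AP2M1, the mu subunit that reads tyrosine sorting signals, had 9.45, 9.28, 9.17, 9.36 and 9.17 with GW9662, 9.87, 9.97, 9.78, 9.90 and 9.92 in bovine controls and 9.37, 9.38, 9.50, 9.08 and 9.22 with vehicle. Its GW9662 and vehicle arrays shared a range, with a difference of -0.02 (SE 0.087, adjusted p = 0.867), while the bovine arrays were all higher. AP2S1, the sigma subunit, had 9.41, 9.49, 9.19, 9.25 and 9.21 with GW9662, 9.67, 9.76, 9.73, 9.70 and 9.59 in bovine controls and 9.19, 9.38, 9.42, 9.18 and 9.26 with vehicle, a difference with GW9662 of 0.03 (SE 0.073, adjusted p = 0.806).

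**Figure D3:**
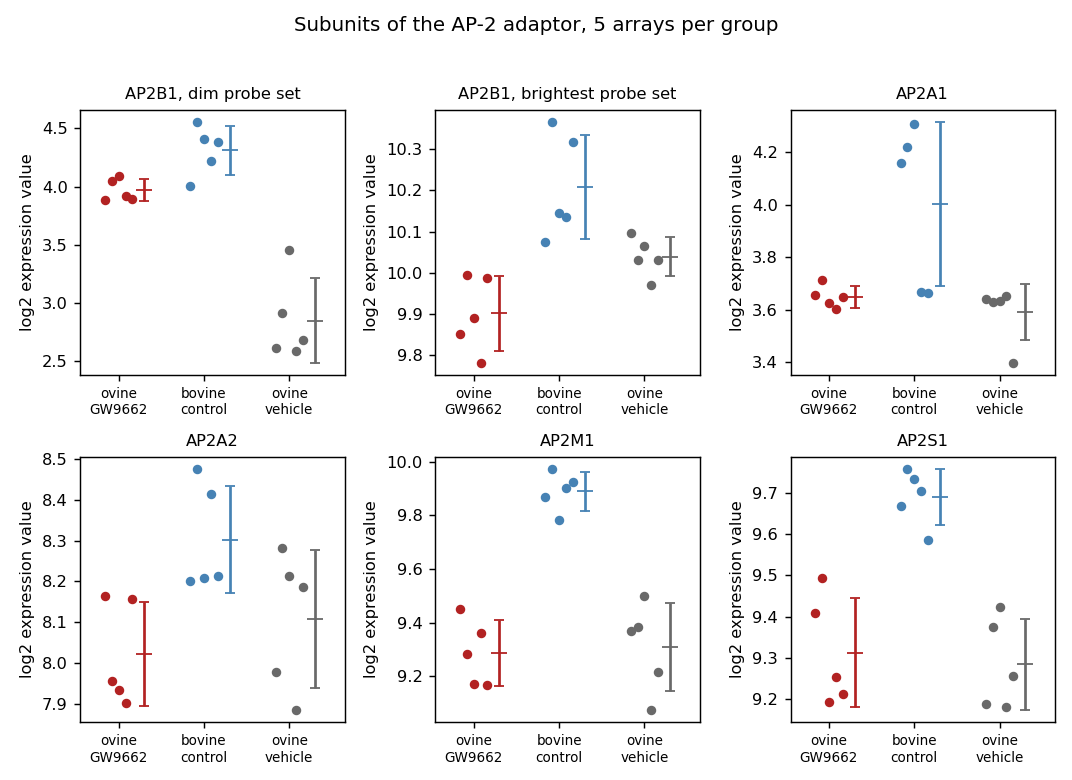
Log2 expression values of the AP-2 subunits on each array (points), with the group mean and SD beside them (5 arrays per group, GW9662 left, bovine control in the middle, vehicle right; each panel has its own axis). The dim AP2B1 probe set separates GW9662 from vehicle arrays, the brightest one does not, and AP2M1 and AP2S1 separate bovine from ovine arrays.

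The clathrin chains did not pass with GW9662. CLTC, the heavy chain, had 11.57, 11.61, 11.66, 11.63 and 11.70 with GW9662, 11.70, 11.56, 11.67, 11.64 and 11.64 in bovine controls and 11.54, 11.48, 11.50, 11.71 and 11.62 with vehicle in its brightest probe set. The 3 groups overlapped, with a GW9662 difference of 0.06 (SE 0.046, adjusted p = 0.377), and the other CLTC probe set had -0.06 (SE 0.058, adjusted p = 0.488). The light chain CLTA had 11.29, 11.31, 11.23, 11.25 and 11.25 with GW9662, 11.52, 11.53, 11.45, 11.53 and 11.50 in bovine controls and 11.44, 11.44, 11.31, 11.29 and 11.33 with vehicle. Its GW9662 arrays reached into the lower end of the vehicle arrays (-0.09, SE 0.035, adjusted p = 0.217). The light chain CLTB had 6.41, 6.51, 6.16, 6.21 and 6.33 with GW9662, 6.01, 5.87, 5.95, 6.04 and 6.23 in bovine controls and 5.89, 6.44, 6.51, 6.31 and 6.30 with vehicle, with vehicle replicate 1 lowest of the ovine arrays and a GW9662 difference of 0.03 (SE 0.12, adjusted p = 0.854), or -0.07 (adjusted p = 0.612) without that array.

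In the other 11 classes, 0 of 72 probe sets passed with GW9662 in limma, against 0.146% higher and 0.0375% lower of all probe sets. An unadjusted p under 0.05 was reached by 12 (16.7%, against 21.4% of all). VPS36, an ESCRT-II subunit, had 7.24, 7.18, 7.06, 7.32 and 7.23 with GW9662 and 5.83, 6.62, 6.91, 6.89 and 7.00 with vehicle in its second brightest probe set, a difference of 0.56 (SE 0.21, adjusted p = 0.217). The ranges did not touch, but vehicle replicate 1 was far below its group, and without it the difference was 0.35 (adjusted p = 0.203). The other VPS36 probe sets had 0.10 and -0.01. VPS4B, 1 of the pair of ATPases that disassemble ESCRT-III, had 8.89, 8.86, 8.86, 8.89 and 8.94 with GW9662 and 8.81, 8.67, 8.62, 8.59 and 8.84 with vehicle, also without overlap (0.18, SE 0.051, adjusted p = 0.215). SNX7, a sorting nexin with a membrane-bending BAR domain, differed by 0.55 (SE 0.16, adjusted p = 0.216) in its dimmer probe set and 0.22 (SE 0.17, adjusted p = 0.379) in the brighter one. Without vehicle replicate 1 these were 0.48 (adjusted p = 0.28) and 0.07 (adjusted p = 0.637). SNX1, a retromer partner, differed by 0.27 (SE 0.083, adjusted p = 0.216) and VPS37A, of ESCRT-I, by 0.30 (SE 0.098, adjusted p = 0.216). The most negative differences were those of VPS18, a core subunit of the HOPS and CORVET tethers (-0.37, SE 0.15, adjusted p = 0.222), and SNX11 (-0.35, SE 0.16, adjusted p = 0.241).

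By class, with 1 probe set per gene, the median GW9662 difference was 0.12 over 8 genes of the SNX-BAR class with SNX3 and SNX12, 0.10 over 7 ESCRT genes, 0.02 over 5 GARP and EARP genes, 0.01 over 6 AP-3 genes, -0.02 over 7 AP-1 genes and -0.08 over 7 genes of HOPS, CORVET and their SM proteins. It was 0.15 over 5 other sorting nexins, 0.06 over 5 retromer genes with VPS26 relatives, 0.03 over 3 clathrin chains and -0.02 over 5 AP-2 genes. The remaining classes held 1 or 2 genes each. With the 3′ minus 5′ covariate, over the same probe sets, the medians of ESCRT (-0.13), GARP and EARP (-0.07) and AP-3 (-0.03) were negative, while those of the SNX-BAR class (0.04), AP-1 (-0.0039) and HOPS and CORVET (-0.21) kept their sign. Those of the other sorting nexins (-0.05), the retromer (-0.14, 1 of 5 genes positive) and the clathrin chains (-0.06) were negative too. AP-2 stayed negative (-0.15, 0 of 5 genes positive).

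Vehicle arrays scattered more than the others. Over the 75 brighter members the median SD was 0.096 with GW9662, 0.10 in bovine controls and 0.17 with vehicle. In 59 of 75 members the vehicle SD exceeded the GW9662 SD (78.7%, against 68.5% of all brighter probe sets), and without vehicle replicate 1 it did so in 52 (69.3%, against 56.9%). Vehicle replicate 1 was the lowest vehicle array in 34 of 75 members, with a median of -0.17 against the other 4. Without it, 2 of the 45 bovine calls described below were lost and 4 gained.

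Bovine controls and ovine vehicle differed far more widely. Of the 90 probe sets, 32 were higher and 13 lower in bovine cells, against 15.6% higher and 29.6% lower of all 24016. Among the 75 brighter members, 31 were higher (41.3%) and 7 lower (9.33%), against 27.7% and 24.4% of 13004 probe sets. Bovine and vehicle arrays did not overlap in 42 of 90 members (46.7%), against 53.0% of all, and in 32 of 75 (42.7%), against 42.6%. The median difference, bovine minus ovine vehicle, was 0.14 over the brighter members and 0.02 over all brighter probe sets. Calls thus leaned to the bovine side, with 71.1% of the 45 calls higher. That share was lowest, 66.7% of 48, with a trended variance and highest, 89.2% of 37, after centring each array on its median. It was 69.4% of 49 in a fit of all arrays and 81.1% of 37 after a second quantile normalisation. Centring moved the median difference of all probe sets too, from -0.029 to 0.0055. The share of higher among the calls of all probe sets was not counted in these settings. Apart from AP2B1, 30 of 87 were higher and 13 lower.

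Species, origin of the cells and the match of sheep RNA to bovine probes cannot be told apart here, and the vehicle arrays are the same as in the GW9662 comparison. The 3′ minus 5′ signal separates both groups too. Markers moved beside these results: the mean of 14 measured endothelial markers ran from 8.19 to 8.28 in bovine arrays and 7.65 to 7.74 with vehicle, that of 7 smooth muscle markers from 3.66 to 3.80 in bovine arrays and 3.12 to 3.31 with vehicle, and that of 6 leukocyte markers from 2.44 to 2.51 in bovine arrays and 3.23 to 3.32 with vehicle. Of the 7 smooth muscle markers, 5 were under 3 in bovine controls and 5 with vehicle. ACTA2 and MYH11, which define smooth muscle, were among them in both groups. In bovine cells 2 of the 7 were called higher and 1 lower. Of the 6 leukocyte markers, 6 were under 3 in bovine controls and 5 with vehicle, PTPRC, which defines leukocytes, in both. In bovine cells 0 of the 6 were called higher and 3 lower. Of 10 fibroblast and pericyte markers, 7 were under 3 in both groups, and 1 was called higher and 4 lower. The part of these markers in the members' differences was not tested.

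**Figure D4:**
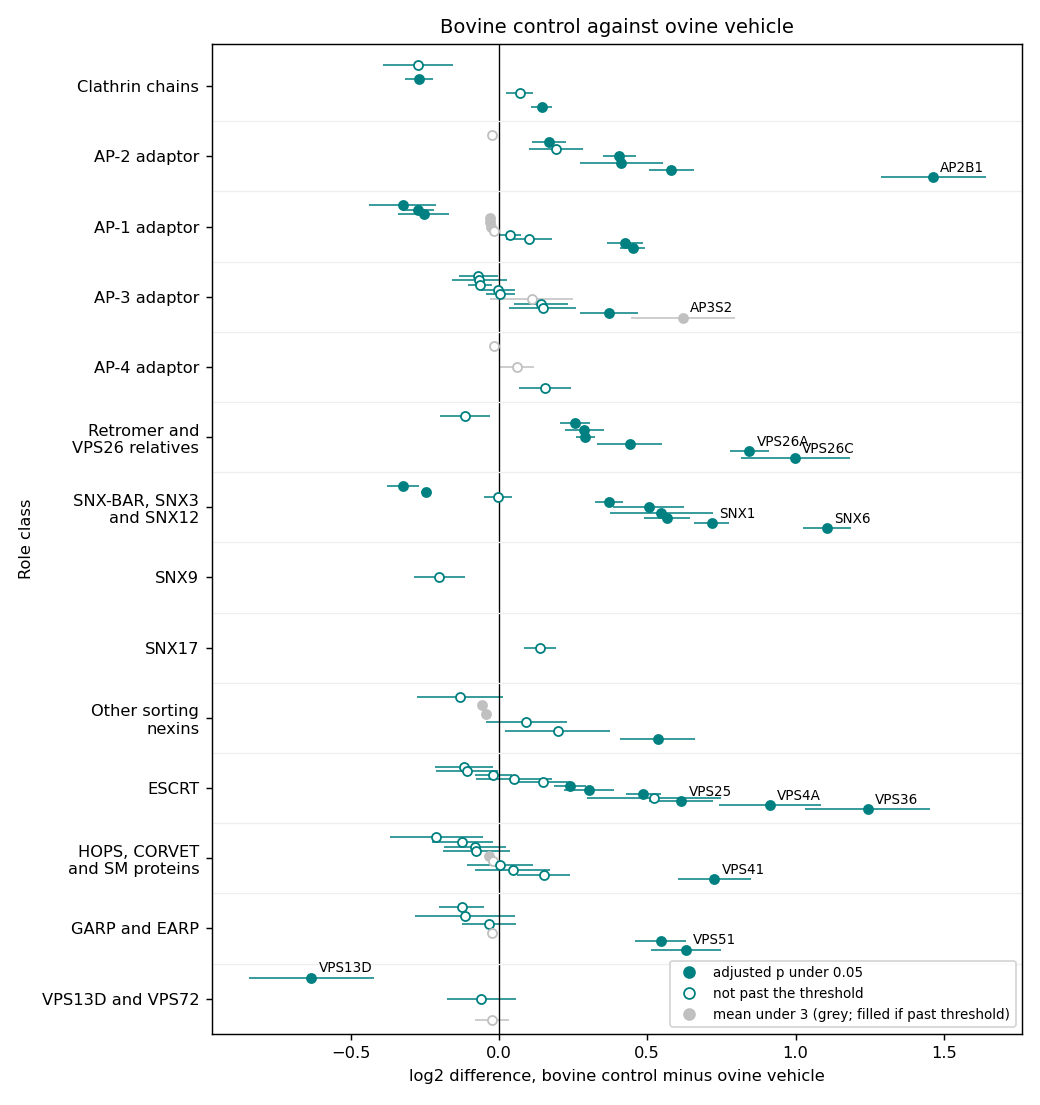
Log2 difference, bovine control minus ovine vehicle, of the 90 probe sets in 14 role classes (points, with bars of 1 SE, 5 arrays per group). Filled points passed an adjusted p of 0.05 and grey ones had a mean under 3; most retromer, SNX-BAR and ESCRT calls lie right of 0, up to SNX6 at 1.11 and VPS36 at 1.24, and VPS13D at -0.63 lies furthest left.

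In the retromer class, 6 of 7 probe sets were higher in bovine cells and 0 lower. The 3 VPS26A probe sets differed by 0.84 (SE 0.066, adjusted p = 1.27e-05), 0.44 (SE 0.11, adjusted p = 0.0134) and 0.29 (SE 0.066, adjusted p = 0.00946). VPS35 was higher by 0.29 (SE 0.032, adjusted p = 0.000112) and VPS29 by 0.26 (SE 0.05, adjusted p = 0.00404), with no overlap of the arrays listed above. VPS26C had 6.58, 6.09, 6.35, 6.49 and 6.35 with GW9662, 7.39, 7.29, 7.34, 7.32 and 7.44 in bovine controls and 5.92, 6.75, 6.67, 5.86 and 6.59 with vehicle. Its bovine arrays were tight and all above the vehicle arrays, which spread widely, and the difference was 1.00 (SE 0.18, adjusted p = 0.00299). VPS26B was not past the threshold (-0.12, SE 0.084, adjusted p = 0.263).

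Sorting nexins of the SNX-BAR type, which pair up to bend membrane for retromer, split by gene. SNX6 had 7.20, 7.21, 6.28, 6.83 and 6.89 with GW9662, 7.86, 7.83, 7.85, 7.66 and 7.87 in bovine controls and 6.80, 6.52, 6.94, 6.72 and 6.57 with vehicle. All bovine arrays were above both ovine groups, and the difference from vehicle was 1.11 (SE 0.081, adjusted p = 8.08e-06). SNX1 (0.72, SE 0.059, adjusted p = 1.74e-05) and SNX5 (0.37, SE 0.047, adjusted p = 0.000311) were higher in bovine cells as well. SNX2, which can stand in for SNX1, went the other way, with 10.18, 10.14, 10.24, 10.26 and 10.37 with GW9662, 9.83, 9.78, 9.83, 9.95 and 9.81 in bovine controls and 10.15, 10.09, 10.06, 10.33 and 10.19 with vehicle. Each bovine array was below each ovine array, a difference from vehicle of -0.32 (SE 0.053, adjusted p = 0.0015). SNX3, which recruits retromer without a BAR domain, was lower, with a difference of -0.25 (SE 0.017, adjusted p = 6.67e-06), with means of 12.09 ± 0.034 in bovine controls and 12.33 ± 0.016 with vehicle (SD, n = 5). Its close relative SNX12 was higher (0.57, SE 0.077, adjusted p = 0.000465).

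SNX7 passed in both probe sets (0.55 and 0.51), the brighter one in 4 of 10 fits that left out an array. SNX4, a recycling nexin (-0.0028, SE 0.046, adjusted p = 0.963), SNX9, which acts with dynamin at clathrin pits (-0.20, SE 0.087, adjusted p = 0.0854), and SNX17, the cargo adaptor of retriever (0.14, SE 0.053, adjusted p = 0.0606), did not pass. Without vehicle replicate 1, SNX9 and SNX17 did, at -0.25 (adjusted p = 0.0406) and 0.16 (adjusted p = 0.0442). SNX11, SNX16 and SNX24 did not pass either, from -0.13 to 0.20. SNX15, of the nexins with a PX domain and no BAR domain, had 4.17, 4.00, 4.01, 4.05 and 3.70 with GW9662, 4.49, 4.36, 4.35, 4.63 and 4.06 in bovine controls and 3.49, 3.87, 4.01, 4.01 and 3.82 with vehicle. Its bovine arrays were all above the vehicle arrays, and the difference was 0.54 (SE 0.13, adjusted p = 0.0113). SNX10 had 2.62, 2.62, 2.62, 2.61 and 2.63 with GW9662, 2.59, 2.58, 2.60, 2.60 and 2.61 in bovine controls and 2.69, 2.66, 2.62, 2.66 and 2.64 with vehicle in its brighter probe set. This is the floor of the array, where a difference of -0.06 passed (adjusted p = 0.00988) through a very small spread.

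In AP-2, every subunit had a positive difference in its brightest probe set and 4 of 5 genes passed. AP2M1 was higher in bovine cells by 0.58 (SE 0.076, adjusted p = 0.000377), and AP2S1 by 0.41 (SE 0.055, adjusted p = 0.00048), both without overlap. AP2A1 was higher by 0.41 (SE 0.14, adjusted p = 0.0405) although bovine replicates 4 and 5 lay near the vehicle arrays, and it passed in 2 of 10 fits that left out an array, with adjusted p from 0.0235 to 0.087 and 0.057 without vehicle replicate 1. The bright AP2B1 probe set was higher by 0.17 (SE 0.058, adjusted p = 0.041), likewise in 2 of 10 such fits, and AP2A2 did not pass (0.19, SE 0.091, adjusted p = 0.103). The dim AP2B1 probe set averaged 4.31 in bovine controls and 2.85 with vehicle, given as values only.

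Of the 4 probe sets of clathrin chains, 1 was higher in bovine cells and 1 lower. CLTA was higher in bovine cells by 0.14 (SE 0.035, adjusted p = 0.0118), with all bovine arrays above the vehicle arrays. The brightest CLTC probe set did not pass (0.07, SE 0.046, adjusted p = 0.22), though without vehicle replicate 4 it was 0.11 (adjusted p = 0.0486), and the other was lower (-0.27, SE 0.049, adjusted p = 0.00268). CLTB did not pass (-0.27, SE 0.12, adjusted p = 0.0818), but without vehicle replicate 1 it was -0.37 (adjusted p = 0.00769).

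AP-1 was mixed, with 2 probe sets higher and 6 lower of 11. AP1S2, a sigma subunit, had 10.20, 10.27, 10.28, 10.41 and 10.36 with GW9662, 10.62, 10.71, 10.68, 10.62 and 10.69 in bovine controls and 10.07, 10.22, 10.25, 10.31 and 10.21 with vehicle in its brightest probe set, with every bovine array above every ovine one (0.45, SE 0.042, adjusted p = 3.81e-05). Its second probe set was lower in bovine cells (-0.25, SE 0.087, adjusted p = 0.0417), so the gene carries opposite calls, though without vehicle replicate 1 the second did not pass (-0.27, adjusted p = 0.0517). AP1M1, a mu subunit, was higher by 0.42 (SE 0.06, adjusted p = 0.000575). AP1S1, another sigma subunit, had 5.72, 5.68, 5.69, 5.58 and 5.58 with GW9662, 5.54, 5.11, 5.56, 5.57 and 5.33 in bovine controls and 5.57, 5.75, 5.96, 5.57 and 5.88 with vehicle. The highest bovine arrays lay just under the lowest vehicle arrays, and the difference of -0.32 (SE 0.11, adjusted p = 0.044) held in 2 of 10 fits without an array. AP1G1, a gamma subunit, was lower in its brightest probe set (-0.27, SE 0.053, adjusted p = 0.00417) and not past the threshold in the other (0.10, SE 0.077, adjusted p = 0.286). AP1B1, the beta subunit, did not pass. The remaining lower calls, AP1G2 and both probe sets of AP1M2, the mu form of epithelial cells, had means under 3 and differences of -0.03.

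AP-3 had 1 gene past the threshold. AP3S2, a sigma subunit, had 7.62, 7.44, 7.49, 7.54 and 7.68 with GW9662, 8.04, 8.15, 8.00, 8.14 and 8.02 in bovine controls and 7.59, 8.00, 7.78, 7.41 and 7.71 with vehicle. The bovine arrays lay above the vehicle arrays except that vehicle replicate 2 reached the lowest of them, a difference of 0.37 (SE 0.098, adjusted p = 0.0172), and its probe set with a mean under 3 was also higher (0.62, SE 0.18, adjusted p = 0.0226). AP3B1, AP3D1, AP3M1 and AP3S1, the other subunits of the ubiquitous complex measured, had 7 probe sets between -0.07 and 0.15, of which 0 passed, though AP3S1 was lower without vehicle replicate 1 (-0.13, adjusted p = 0.0428). AP3B2, the neuronal beta form, was under 3. AP4S1 (0.16, SE 0.088, adjusted p = 0.161) and both probe sets of AP4M1, under 3, did not pass.

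Among ESCRT genes, 6 of 12 probe sets were higher in bovine cells and 0 lower. VPS4A, the partner of VPS4B, had 6.96, 6.81, 6.89, 6.96 and 6.67 with GW9662, 7.73, 7.53, 7.44, 7.48 and 7.50 in bovine controls and 6.69, 6.98, 6.91, 5.998 and 6.55 with vehicle in its brightest probe set. Bovine arrays were all higher than the ovine ones, and vehicle replicate 4 was the lowest (0.91, SE 0.17, adjusted p = 0.00339). The second VPS4A probe set did not pass (0.05, SE 0.13, adjusted p = 0.747). VPS36 had 7.95, 7.92, 7.64, 7.93 and 8.01 in bovine controls in its second brightest probe set, against the vehicle values given above (1.24, SE 0.21, adjusted p = 0.00191), and 0.49 (SE 0.06, adjusted p = 0.000255) in its brightest probe set. Its dimmest probe set did not pass (0.15, SE 0.092, adjusted p = 0.197). VPS25, also of ESCRT-II, was higher by 0.61 (SE 0.11, adjusted p = 0.0022) in its brighter probe set and not past the threshold in the dimmer one (-0.02, SE 0.063, adjusted p = 0.815). VPS37A was higher by 0.30 (SE 0.085, adjusted p = 0.0214) in its brighter probe set, with 0.52 (SE 0.23, adjusted p = 0.0821) in the other, and VPS4B by 0.24 (SE 0.053, adjusted p = 0.00828). VPS28 and VPS37B, both of ESCRT-I, did not pass, at -0.12 and -0.11.

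In the tethers, 3 genes passed in their brightest probe set. VPS41, a HOPS subunit, had 6.27, 6.17, 6.15, 6.21 and 5.98 with GW9662, 6.80, 6.44, 6.79, 6.60 and 6.56 in bovine controls and 5.74, 6.29, 5.78, 5.72 and 6.03 with vehicle in its brighter probe set. Bovine arrays exceeded all ovine ones, and the difference from vehicle was 0.73 (SE 0.12, adjusted p = 0.00184). The other VPS41 probe set did not pass (0.15, SE 0.09, adjusted p = 0.185). VPS11, VPS16, VPS18 and VPS39 of the same tethers, VPS33B and VPS45, which are SM proteins, had brightest probe sets between -0.21 and 0.05, and none of the 6 passed. A second VPS33B probe set under 3 was lower by a difference of -0.03. VPS51, VPS52 and VPS53 are shared by GARP and EARP, which differ in VPS54 and VPS50. VPS51 had 7.10, 6.92, 6.80, 6.85 and 6.86 with GW9662, 7.64, 7.63, 7.75, 7.48 and 7.78 in bovine controls and 6.62, 7.32, 7.09, 7.00 and 7.09 with vehicle. Every bovine array was above every vehicle array, a difference of 0.63 (SE 0.12, adjusted p = 0.0035), and VPS52 was higher too (0.54, SE 0.087, adjusted p = 0.00125). VPS50, VPS53 and VPS54 did not pass, from -0.13 to -0.03.

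VPS13D, a lipid transfer protein at mitochondria, had 4.39, 4.05, 4.39, 4.17 and 4.06 with GW9662, 3.34, 3.47, 3.26, 3.60 and 3.54 in bovine controls and 3.31, 4.13, 3.98, 4.48 and 4.47 with vehicle. Bovine arrays were lower than vehicle replicates 2 to 5, but vehicle replicate 1 was below 4 of the 5 bovine arrays. The difference of -0.63 (SE 0.21, adjusted p = 0.0381) was kept only without vehicle replicate 1 (-0.82, adjusted p = 0.00136) among the 10 fits that left out an array. VPS72, which despite its name belongs to a nuclear chromatin remodelling complex, did not pass (-0.06, SE 0.12, adjusted p = 0.678). Of the 13 lower calls, 6 were probe sets under 3 with differences of -0.06 to -0.03, and 0 of these 6 passed after centring the arrays. Of all 45 calls, 34 passed with each array left out in turn.

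Probe sets of the same gene often differed. In the 22 genes with several, 14 had at least 2 with a mean of 3 or more. For bovine minus ovine vehicle, these shared their sign in 8 of 14 genes and their call in 6 of 14, with a median gap of 0.46 between the highest and lowest difference and a largest gap of 1.29, in AP2B1. For GW9662 minus vehicle, signs were shared in 7 and calls in 12 of the 13 genes other than AP2B1. The largest gap among these 13 was 0.57, in VPS36. AP2B1 had a gap of 1.26, given as a description because the family was chosen on its GW9662 values. The median gap over all 14, AP2B1 included, was 0.18. VPS26A and SNX7 were among the genes whose probe sets all had the same sign in both comparisons, while AP1S2 was the gene with calls both ways.

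**Figure D5:**
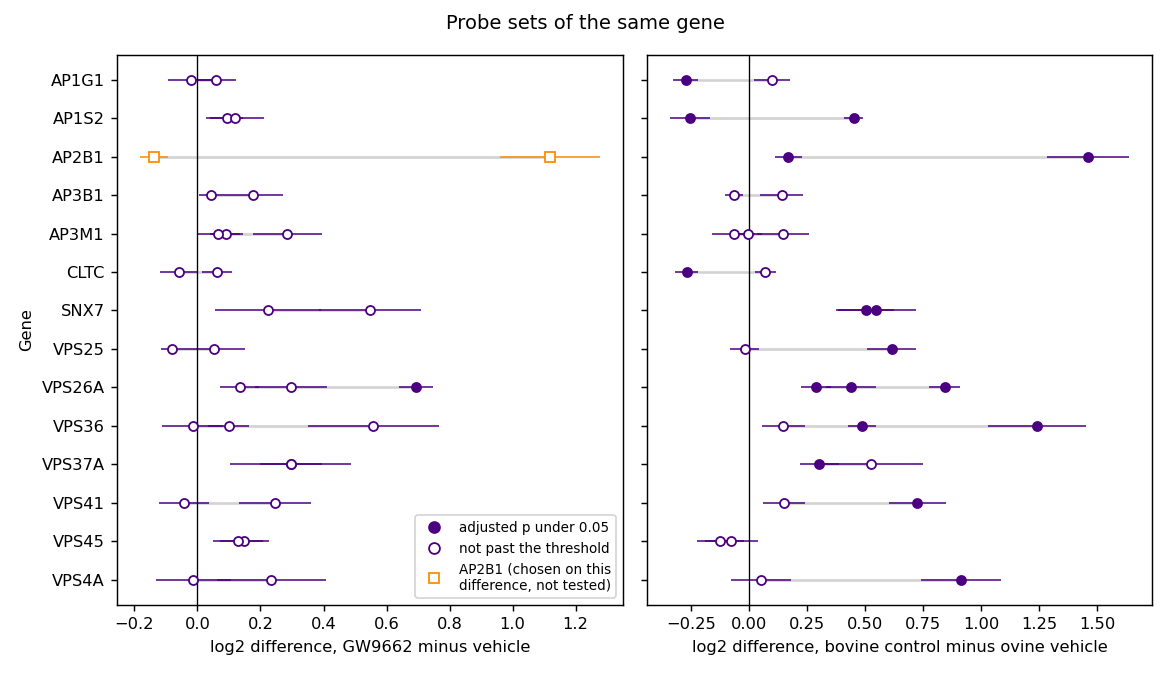
Log2 differences of the probe sets of 14 genes with at least 2 of a mean of 3 or more (points, with bars of 1 SE, joined by a grey line), GW9662 minus vehicle on the left and bovine control minus ovine vehicle on the right, 5 arrays per group. AP2B1 has the longest line in both panels (squares on the left, where it was not tested), and AP1S2 has a filled point on each side of 0 on the right.

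Of 177 further genes of endosomal transport, 128 were measured. With GW9662, 0 passed in limma (median -0.01), against 0.146% higher and 0.0375% lower of all probe sets. The smallest adjusted p was 0.107 for VAMP7, an R-SNARE of late endosomes, at 0.58. An unadjusted p under 0.05 was reached by 20 of the 128, against 21.4% of all probe sets. In bovine cells against ovine vehicle, 28 were higher, 22 lower and 78 not past the threshold (median 0.04). The shares were 15.6% higher and 29.6% lower of all probe sets, and 27.7% and 24.4% of those with a mean of at least 3. Accessory genes of clathrin endocytosis had 7 higher and 3 lower of 25, among them the cargo adaptor DAB2 (1.34, SE 0.061, adjusted p = 3.31e-07) and HIP1, which links clathrin to actin (1.40, SE 0.091, adjusted p = 3.73e-06), against SH3GL2, endophilin A1 (-3.86, SE 0.18, adjusted p = 3.31e-07). Among 11 cargo receptors, 2 were higher and 4 lower: IGF2R (-1.71, SE 0.10, adjusted p = 2.25e-06) and M6PR (-0.52, SE 0.049, adjusted p = 3.82e-05), receptors for mannose 6-phosphate, were among those lower. All 3 measured WASH complex genes, which drive actin at retromer tubules, passed, with WASHC1 higher and WASHC2A and WASHC3 lower. Of 20 further ESCRT genes, 1 was higher and 3 lower, CHMP2B by the largest difference (-0.81, SE 0.062, adjusted p = 1.05e-05).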

How the data were processed

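RNA of 15 samples was measured on bovine Affymetrix arrays, 5 per group, and each sample's group came from its title. The authors deposited log2 expression values, which the submitters' processing notes credit to RMA without naming a version. The method subtracts background, scales the arrays to a common distribution and sums up the probes of each probe set, so differences are relative to that scaling and the values hold no depth. From the 24128 probe sets, 112 control probe sets were left out. Each comparison used only its own 10 arrays and was tested in limma 3.58.1 (R 4.3.3) through lmFit and eBayes, p-values were adjusted by Benjamini-Hochberg across 24016 probe sets, and a call means an adjusted p under 0.05. Differences carry their standard error (SE) and means their SD. The fit was tested on simulated data. For genes with several probe sets, the brightest over the arrays fitted stands for the gene. Gene names come from the platform annotation.

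Any member could be named. Values on every array are given for probe sets past the threshold with GW9662, for the AP-2 subunits, clathrin chains and retromer trimer, and for the largest bovine difference in each direction of a class. Other probe sets with values on every array were chosen after their values were seen. The members, role classes and gene lists were chosen with earlier results of these data known. Alternatives were array centring, a second quantile normalisation, leaving out probe sets with a mean under 3, a trended variance, 1 probe set per gene, all 15 arrays in a single fit, the replicate number as a block, the 3′ minus 5′ covariate and leaving out each array. The covariate was fitted only for GW9662 against vehicle. No sequences or coordinates are given.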

Additional observations from a re-analysis of the deposited data

Results flagged for a closer look

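Among 72 groups of 5 arrays, 4 held an array far from its group by Dixon's test, which chance does in about 1 of 20 groups. AP2A1 was at 3.40 in vehicle replicate 5, against 3.63 to 3.65 in the other vehicle arrays. VPS29 was at 10.72 in GW9662 replicate 3, against 10.87 to 10.90 in the others of its group. VPS35 was at 10.92 in bovine control replicate 2, against 11.04 to 11.08 in the other bovine arrays. SNX6 was at 7.66 in bovine control replicate 4, against 7.83 to 7.87 in the other bovine arrays.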

How the results depend on the processing

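For GW9662 against vehicle, 2 members other than AP2B1 passed in limma. The AP2B1 probe sets are left out of this count, since the family was chosen on this gene. The count was 1 with 1 probe set per gene, which leaves out the called probe set of VPS26A. It was 0 with the 3′ minus 5′ covariate, in which the groups do not overlap. In that fit 9 of all 90 members, AP2B1 included, had an unadjusted p under 0.05. The share over all probe sets was not counted for that fit, so the 9 are not read further. The count ran from 1 to 2 with an array left out, and VPS26A was called in all 10 of those fits. Of bovine differences from ovine vehicle, 13 members were lower. That count was 16 with a trended variance, 15 in a fit of all arrays, 6 with 1 probe set per gene, 4 after array centring, 7 with dim probe sets left out, 7 after quantile normalisation, and 6 to 15 with an array left out, the most being without vehicle replicate 1. Higher calls ran from 26 to 34 over the alternatives run, against 32. The 3′ minus 5′ covariate was not among these, so how far the bovine calls move with that signal was not tested. No called difference of a named member changed sign.

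With a replicate block, 0 members passed with GW9662, and 27 were higher and 5 lower in bovine cells. In the GW9662 block fit 18 of all 90, AP2B1 included, had an unadjusted p under 0.05. The share over all probe sets was not counted there either. Same-numbered GW9662 and vehicle arrays correlated at -0.19 to 0.17 in their deviations from group means over all probe sets. Bovine and vehicle arrays of the same number correlated at -0.10 to 0.09. In neither comparison was an array closest to its own number. The labels do not say whether replicate numbers mark pairs, and these correlations cannot settle it. The causes of these changes were not tested.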
